A study of Bombyx mori with 2 samples.

Results

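The *yellow* genes examined here are *yellow* (BGIBMGA001149), *yellow-e* (BGIBMGA007253) and *yellow-h2* (BGIBMGA007255), 3 of the 6641 silkworm genes in which the deposited tables list a variant site. They were chosen by their gene identifiers, and every row of the tables that carries one of these identifiers was taken, which gave 26 of 47001 sites. The RNA came from the larval epidermis of the *Bombyx mori* mutant q-lp (purple quail-like), described as having quail-like markings and light purple skin, and of 932VR, the plain strain in which the mutant arose and which is labelled wildtype. Larvae of both strains were in the 4th instar, 6 hours after molting, were reared on mulberry leaves, and were pooled in groups of 3. There was 1 library per strain, and the mutant line had been inbred.

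The tables hold positions at which reads differed from the SilkDB genome sequence, with the number of reads at the site (the coverage) and the percent of them that carried the alternative base, from which the reads of each base were computed. Each site has 1 coverage and 1 percent. The tables are labelled with both strain names, and no value in them is assigned to q-lp or to 932VR. The reads of the mutant and of the plain strain therefore cannot be told apart at any site. How many reads each library gave to a site was not stated. Over all sites the coverage was 2 to 100 reads with a median of 7, and every listed site had at least 2 alternative reads. Of 5 cuticle protein genes, taken from those that the study names, 3 had listed sites, 18 in all, covered by 2 to 81 reads. BGIBMGA003728 and BGIBMGA005303 had none. A listed site requires a difference from the genome sequence, so these counts do not check the labelled tissue. The tables hold no expression level, so the coverage of a site is given here only as the depth behind its share.

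Melanin is the black and brown pigment of the insect cuticle. It is made from tyrosine through dopa and dopamine, and proteins of the Yellow family act late in this pathway. They are secreted proteins related to the royal jelly proteins of the honeybee. In *Drosophila* the founding gene *yellow* is needed for black cuticle. In the silkworm, changes in *yellow* underlie the chocolate mutant, whose larvae are reddish brown where others are black, and changes in *yellow-e* underlie a mutant with brown head and tail spots. *Yellow-h2* is a further member of the family. Because family members resemble one another in sequence, reads could have been placed on the wrong member, which the tables do not allow to be tested.

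The parts of these genes that the study amplified in its quantitative PCR are marked by the primer pairs below. They are shown as the sequences that the study lists for the 3 genes, and they are written 5′ to 3′ in lower case with no part singled out.
yellow forward: ttggcacttatggatacgac
yellow reverse: ccatagcccagttcatcg
yellow-e forward: attcagcgtatcaacagcagt
yellow-e reverse: tggaagcgagtggaaagag
yellow-h2 forward: actctaatccgttattctaccc
yellow-h2 reverse: gcactgaagttggcacat
The primers are 18 to 22 nucleotides long, and their share of G and C lies between 40.9% (*yellow-h2* forward) and 55.6% (*yellow* reverse). Whether a listed site lies under a primer was not tested.

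All 26 sites of the *yellow* genes were single-base changes, and none was an indel. Indels were rare in the whole series, 1481 of 47001 sites. At each of the 26 sites of the *yellow* genes every counted read carried the alternative base. Summed over these sites, this made 454 reads, and 0 reads had the reference base. A site with no reference read was common in the whole series, 84.9% of the listed sites, and 64.3% of the genes with at least 6 sites had no reference read at any of them. All 3 *yellow* genes belonged to this majority. Among sites covered by at least 20 reads, where a reference read would more easily have been seen, 11 of 11 sites of the *yellow* genes and 74.7% of all sites had none. With both alleles defined as an alternative share of 20 to 80% at a coverage of at least 10 reads, 0 of 12 sites of the *yellow* genes had both, against 21.0% of all such sites. With 12 sites in 3 genes, and with neighbouring sites sharing reads, this contrast was not tested.

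Substitutions are written below with the reference base, the position on the SilkDB scaffold and the alternative base. *Yellow* lies on Bm_scaf1 from 6302561 to 6312118, a span of 9558 bp, and had 6 sites. Near its start C6302668T was covered by 5 reads and T6302731C by 3. C6310616G and C6310634A, 8055 and 8073 bp from the listed start, were covered by 2 reads each. The other sites, A6311554G and T6311837C, were the best covered of the gene, with 31 and 20 reads, and lay 564 and 281 bp from its listed end. At A6311554G, 0 of 31 reads carried the reference base, which allows a share of up to 9.68%. This limit takes 3 reads over the coverage, a one-sided rule of thumb, and the exact two-sided 95% interval allows 11.2% there. At T6311837C, 0 of 20 reads allows up to 15.0% by the same rule. The depth at the remaining 4 sites of *yellow* leaves room for a large share of the reference base, with exact upper limits of 52.2% at 5 reads, 70.8% at 3 and 84.2% at 2.

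*Yellow-e*, the longest of the 3 genes, spans 21641 bp of Bm_scaf92 from 1506236 to 1527876. Its 9 sites fell into 2 tight groups 14315 bp apart, with none between them. The first group, A1513298G, A1513310G, C1513322T, C1513355T and G1513391A, spans 94 bp in the inner part of the gene, with a coverage of 4 to 5 reads. The second group, G1527706A, C1527724T, G1527799A and A1527868G, spans 163 bp and ends 8 bp before the listed end of the gene. Its sites were covered by 38, 68, 58 and 45 reads, which were the 4 best covered sites of the *yellow* genes. The mean coverage was 52.2 reads in the second group and 4.60 reads in the first, and the coverages of the groups did not overlap. At C1527724T, 0 of 68 reads allows a share of the reference base of up to 4.41% by the rule of 3 reads and of up to 5.28% by the exact (Clopper-Pearson) two-sided 95% interval, the tightest limits among these sites. At each site of the second group the limit was 7.89% or lower by the rule of 3 reads and 9.25% or lower by the exact interval. In the first group the exact upper limits were 52.2% at 5 reads and 60.2% at 4 reads. All these limits cover counting error only, and reads amplified by PCR are not independent molecules.

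*Yellow-h2* had the most sites of the 3 genes, 11, and the highest density. It lies on Bm_scaf92 from 1443891 to 1449149, a span of 5259 bp. All its sites were in the first part of the listed span, from 66 to 1885 bp after the start, and the last 3373 bp held none. T1443957C was covered by 15 reads, C1444242T and C1444254G by 21 reads each, G1444299A by 26 and T1444323C by 31. G1444688A, with 22 reads, was the last site with more than 10. Farther along, G1444785C had 9 reads, A1444914G and G1445776A had 5 each, and A1445159T and T1445502G had 2 each. The 6 sites within 797 bp of the start thus had the highest coverage, and the 5 listed sites beyond had 9 reads or fewer. At T1444323C, 0 of 31 reads allows a share of the reference base of up to 9.68% by the rule of 3 reads.

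**Figure D1:**
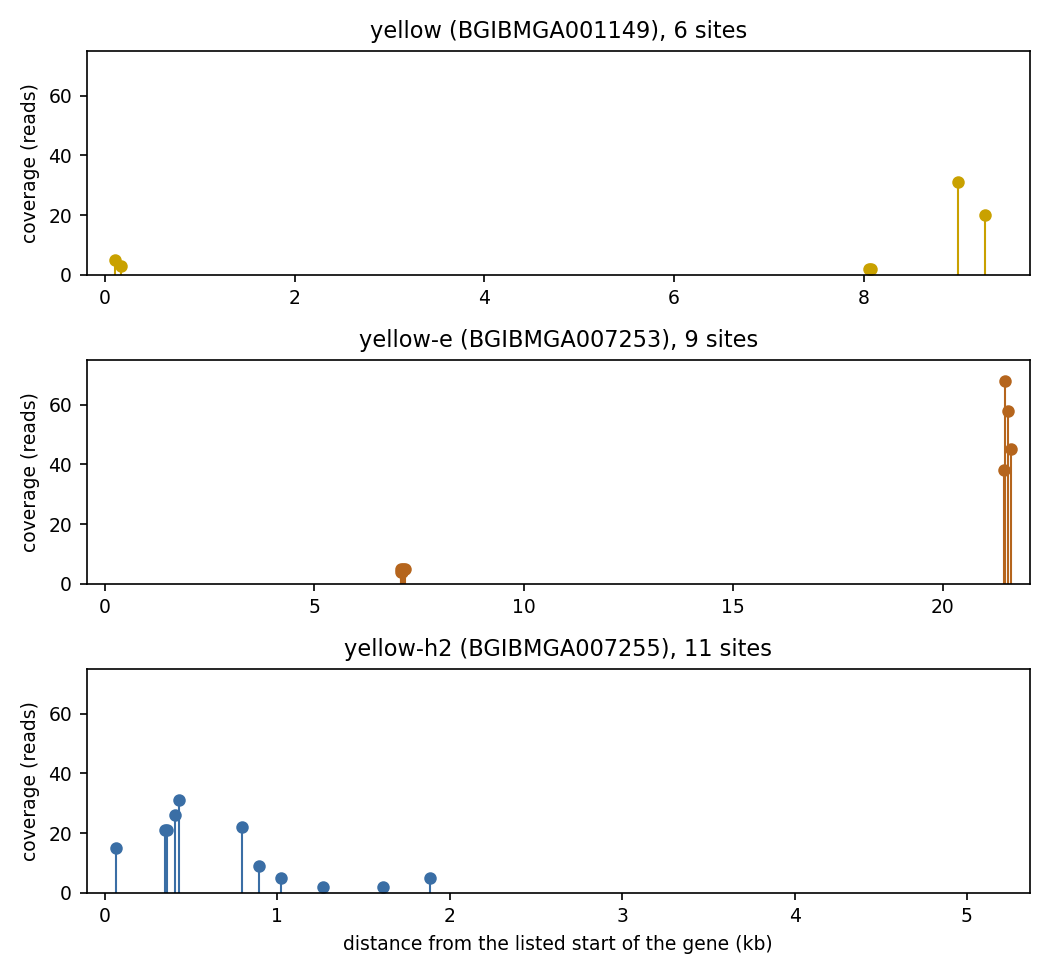
Coverage in reads (vertical axis) of each listed site against its distance from the listed start of the gene in kb (horizontal axis), with 1 panel per gene and 1 point per site. The 4 sites at the end of *yellow-e* reach 38 to 68 reads, while its inner 5 sites have 4 to 5, and the sites of *yellow-h2* are all within 1885 bp of its start.

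Set against all genes with a listed site, the *yellow* genes were not extreme in number of sites. The median gene had 4 sites, and 61.5%, 74.7% and 80.5% of the genes had fewer sites than *yellow*, *yellow-e* and *yellow-h2* in turn. Per kb of listed span *yellow* had 0.628 sites, *yellow-e* 0.416 and *yellow-h2* 2.09, and the median gene had 0.842. How much of each span was covered by RNA reads is not known, so these densities are not rates of variation. The best covered site of *yellow-e* was deeper than that of 91.8% of the genes, and the best covered sites of *yellow* and of *yellow-h2* were each deeper than that of 76.5%.

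Transitions, which exchange the purines A and G or the pyrimidines C and T, made up 20 of the 26 changes in the *yellow* genes (76.9%), against 66.6% of the single-base changes over all sites. *Yellow-e* had 9 transitions at 9 sites, *yellow-h2* 7 at 11 sites and *yellow* 4 at 6 sites. The transversions of *yellow* were at the neighbouring positions C6310616G and C6310634A, each covered by 2 reads. Of the 4 transversions of *yellow-h2*, C1444254G was covered by 21 reads, G1444785C by 9, and A1445159T and T1445502G by 2 each. The share of transitions over the 3 genes lies near that of the whole series and rests on few sites.

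Where sites of the *yellow* genes lay close together, most of them were spaced in steps of 3 bases. Between neighbouring sites of a gene that lay at most 100 bp apart, 12 of 13 gaps were a multiple of 3. A codon has 3 bases, so that sites spaced in this way take the same place in their codons where they lie in 1 coding exon. Over all genes 57.8% of the 23307 gaps of this size were a multiple of 3, against 33.3% for an even spread over the 3 remainders, so the *yellow* genes share a feature of the whole table. The tables do not mark exons or strands, and their place in a codon was not tested.

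In *yellow-e* the gaps of the first group were 12, 12, 33 and 36 bp and those of the second were 18, 75 and 69 bp, so that all 7 were a multiple of 3. In *yellow* the gap was 63 bp between the sites near the start and 18 bp between the transversions. The larger gaps of *yellow*, 7885, 920 and 283 bp, were not multiples of 3, and that of 283 bp lay between its best covered sites. In *yellow-h2* the gaps of 12, 45 and 24 bp were multiples of 3, and the gap of 97 bp was not. The larger gaps of 285 and 129 bp in this gene were multiples of 3 as well, and those of 365, 245, 343 and 274 bp were not. The first 5 sites of *yellow-h2*, which include its best covered site, and both groups of *yellow-e* were therefore each in 1 phase of 3.

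**Figure D2:**
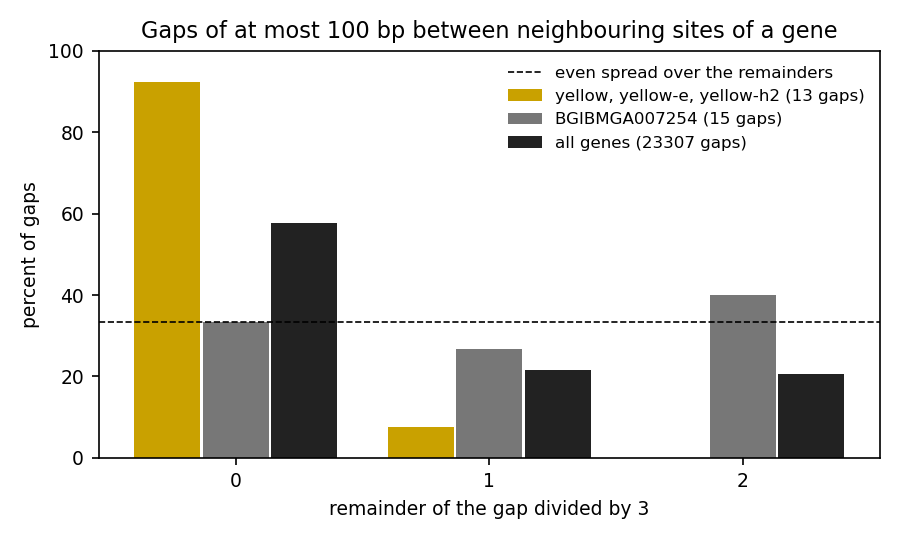
Percent of gaps of at most 100 bp between neighbouring sites of a gene (vertical axis) by the remainder after division by 3 (horizontal axis), for the 3 *yellow* genes, for BGIBMGA007254 and for all genes. The *yellow* genes have 92.3% of their 13 gaps at remainder 0, BGIBMGA007254 has 33.3% of its 15 gaps there, and all genes have 57.8%. The dashed line marks an even spread.

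*Yellow-h2* and *yellow-e* lie on the same scaffold, with 57086 bp of Bm_scaf92 between their listed ends (1449150 to 1506235). BGIBMGA007254, from 1472039 to 1485956, was the only gene with listed sites in this stretch. It had 20 sites, covered by 2 to 7 reads, so that none reached 10. Of these, 19 had no reference read, and G1478670A had 1 reference and 4 alternative reads. Its first 14 sites were packed into 389 bp, from A1472041T to A1472429G. Its gaps of at most 100 bp were a multiple of 3 in 5 of 15 cases, so the steps of 3 seen in the *yellow* genes on either side of it were not repeated there. No test of this difference was run.

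From the listed start of *yellow-h2* to the listed end of *yellow-e* the scaffold spans 83986 bp. Of the 40 sites of *yellow-h2*, BGIBMGA007254 and *yellow-e* in this span, 39 had no reference read. Farther out on both sides, BGIBMGA007256, which ends 10370 bp before *yellow-h2*, had 9 sites covered by 2 to 84 reads, all without a reference read. BGIBMGA007308, which begins 4379 bp after *yellow-e*, had 4 sites covered by 2 to 6 reads, 1 of them with reference reads. The nearest sites with a reference read lay 278080 bp before *yellow-h2*, with 2 reads of each base, 29521 bp after it, and 9446 bp after *yellow-e*, with 2 reference and 3 alternative reads. *Yellow-h2* thus stood in a run of 83 sites in 14 genes without a single reference read. The run around *yellow-e* was shorter, 10 sites in 2 genes, and the nearest site with a reference read before *yellow-e* lay 27566 bp away, in BGIBMGA007254. That site, G1478670A, also ends the run of *yellow-h2*, so the split between these runs rests on 1 reference read among 5.

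**Figure D3:**
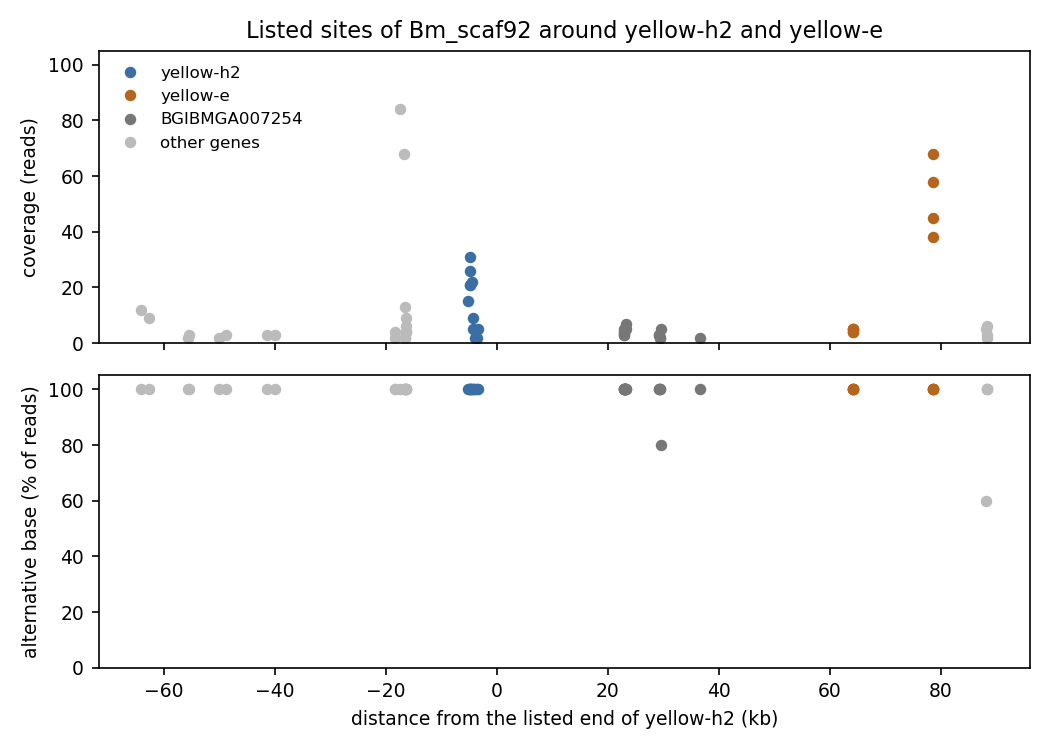
Coverage in reads (upper panel) and percent of reads with the alternative base (lower panel) of the listed sites within 100 kb of *yellow-h2* and *yellow-e*, against the distance from the listed end of *yellow-h2* in kb, with 1 point per site. Of 63 sites, 61 are at 100%, and those with reference reads have a coverage of 5 reads each.

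The absence of reference reads was not limited to the pair of *yellow* genes on Bm_scaf92. Over this whole scaffold 182 of 186 sites had no reference read, against 84.9% of all listed sites. Of its sites with at least 10 reads, 0 of 45 had both alleles, against 21.0% of all such sites. *Yellow* lies on Bm_scaf1, where 385 of 1792 sites had reference reads, and 187 of 720 sites with at least 10 reads had both alleles. Around *yellow* itself the nearest sites with a reference read were 764279 bp before the gene, with 10 reference and 2 alternative reads, and 76507 bp after it, in BGIBMGA001152, with 5 reference and 10 alternative reads. *Yellow* stood within a run of 161 sites in 15 genes with no reference read. The absence of the reference base in the *yellow* genes therefore cannot be set apart from that of the sites around them.

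Of the 12 melanin genes of the study reported here, these 3 included, 6 had listed sites. The tables analysed here give no share over all silkworm genes to set beside this count, because they list no gene without a site. The count is therefore not read as a result about melanin genes. Among the other 3, *yellow-x* (BGIBMGA014224), also of the Yellow family, had 13 sites covered by 2 to 5 reads on Bm_scaf80, all without a reference read. *Tan* (BGIBMGA002077), which encodes the hydrolase that returns N-β-alanyl-dopamine to dopamine, had 17 sites covered by 2 to 82 reads, of which 16 had no reference read. *Ddc* (BGIBMGA003199), the dopa decarboxylase, had 6 sites with 2 to 6 reads, none with a reference read. Over these 3 genes 35 of 36 sites had no reference read, against 84.9% of all listed sites. Of their gaps of at most 100 bp, 13 of 16 were a multiple of 3, against 57.8% over all genes. In *yellow-x* it was 7 of 8 gaps. These differences were not tested. The other 6 genes, *ebony*, *TH*, *yellow-f4-2*, *dat*, *blank* and *yellow-f2*, have no row in the tables analysed here, which says nothing about their expression.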

How the data were processed

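RNA-Seq of epidermis pools of q-lp and 932VR was analysed from the 2 deposited tables of variant sites. The authors aligned the reads to the SilkDB genome. The aligner, the variant caller, its filters and any pooling of reads before calling are not given in the sources used here. From the deposited columns, the read count at each site (coverage) and the percent of alternative reads were used. Reads of each base were computed from these values, and the product came within 0.01 of a whole read in all 47044 rows. A site listed under a second gene (43 rows) was counted 1 time in totals over sites. None of the 4 value columns belongs to a single sample, so no test between the strains was made.

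Shares were given exact (Clopper-Pearson) 95% binomial intervals, and for 0 reads the limit of 3 reads over the coverage. Genes were named by the rule of the 3 *yellow* genes, the other melanin genes of the study (1 of which is not reported here) and the genes next to *yellow-h2* and *yellow-e*. BGIBMGA001152 was named after its values were seen. Members and lists were chosen with earlier results of these data known, and the spacing of sites was examined after the positions had been seen. Alternatives were other coverage minimums (5, 10 and 20 reads), shares of 10 to 90% or 30 to 70%, single-base variants alone, means over sites, each site left out in turn and Wilson intervals. The counting was tested on simulated data. Python 3.11.15, pandas 2.3.3 and SciPy 1.17.1 were used. Primer sequences are those of the study's supplement, and its expression values were not used.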

Additional observations from a re-analysis of the deposited data

How the results depend on the processing

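Sites with both alleles in the *yellow* genes stayed at 0 at coverage minimums of 5 (0 of 19 sites) and 20 reads (0 of 11), without a minimum (0 of 26), with shares of 10 to 90% or 30 to 70% (0 of 12 each) and with single-base variants alone (0 of 12). Over all sites the percent with both alleles ranged from 13.2% without a minimum to 23.8% with shares of 10 to 90%. The pooled alternative share was 100% for each gene in every alternative run. Both outcomes were fixed in advance, since none of the 26 sites had a reference read. The numbers of sites depended on depth by construction, since fewer sites pass a minimum. At 10 reads *yellow* kept 2 sites, *yellow-e* 4 and *yellow-h2* 6, and at 20 reads 2, 4 and 5. Wilson intervals moved the lower limit at the best covered sites from 88.8% to 89.0% in *yellow* and *yellow-h2* and left it at 94.7% in *yellow-e*. In settings added after the data had been seen, gaps that were a multiple of 3 numbered 9 of 9 at a limit of 50 bp, 14 of 18 at 300 bp (56.7% over all genes in both) and 6 of 6 at a minimum of 10 reads (61.8% over all genes), where transitions were 11 of 12. No paired analysis was possible because each strain has 1 library and the tables do not separate them.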
